A study of Mus musculus with 12 samples.

Results

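The genes described here are the creatine kinases Ckm, Ckmt2 and Ckb, the adenylate kinases Ak1 and Ak3, myoglobin (Mb) and the creatine transporter Slc6a8, measured in adult mouse heart as ribosome-bound and as total poly(A) RNA. They were named as a list of phosphagen and oxygen buffering genes of heart muscle, and their gene identifiers were matched to GENCODE M21 names, which gave 7 of the 55401 genes listed in every count file. All 7 had enough counts to be tested. The study used WT hearts and hearts of the genotype Rpl3l-/- (KO), which lacks the muscle-specific ribosomal protein Rpl3l. From each genotype 3 libraries were made of an immunoprecipitate of HA-tagged ribosomes (IP) and 3 of whole-heart RNA (Input), 12 libraries in 4 groups, described by the submitters as biological triplicates. Hearts for IP were placed in cycloheximide, which stalls ribosomes on their mRNA, and ribosomes were captured from the lysate with anti-HA antibody. IP RNA was then purified with RNeasy columns, whereas Input RNA was isolated with TRIzol from hearts for which no cycloheximide is mentioned, so that ribosome binding, drug and RNA purification cannot be told apart in any IP against Input comparison. Both kinds of RNA were selected with oligo(dT) and sequenced as nanopore direct cDNA on a MinION. The labels do not say which cells carry the HA tag or whether all groups do, which gene carries it, the age beyond "adult", the sex or the strain.

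Creatine kinases move the high-energy phosphate of ATP onto creatine and back. In heart muscle, the mitochondrial enzyme encoded by Ckmt2 charges creatine where ATP is made, and cytosolic dimers of the muscle (Ckm) and brain (Ckb) subunits regenerate ATP near the myofibrils and ion pumps. Adenylate kinases recover ATP from ADP and set the level of AMP, with Ak1 in the cytosol and Ak3 in the mitochondrial matrix, where it uses GTP. Myoglobin binds oxygen and eases its passage to mitochondria, and Slc6a8 brings creatine into the cell, which cardiomyocytes do not make in quantity themselves.

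The start codon and its neighbourhood are the part of an mRNA that an initiating ribosome reads, and the pulldown compares ribosome-bound with total RNA. The 9 bases on each side of the start codon are therefore shown for all 7 genes, 5′ to 3′ on the coding strand, from the GENCODE M21 transcript (build GRCm38) with the longest complete coding sequence, with the start codon in capitals.
Ckm: gccgccaccATGccgttcggc
Ckmt2: agaagaaggATGgccagtgcc
Ckb: gccgccgccATGcccttctcc
Ak1: gataggatcATGggctgctgt
Ak3: ccagccaccATGggggcgtcg
Mb: gaagccaccATGgggctcagt
Slc6a8: gctggggccATGgcgaaaaag
A purine (A or G, read on the coding strand only) stood 3 bases before the start codon in 7 of 7 genes, as in 87.8% of the 6287 tested genes that have such a window. A G directly after the start codon was present in 5 of 7 genes and in 52.5% of the tested genes. Ckm and Ckb, which have C there, share the block gccgcc upstream. Of the genes that were lower in IP, Mb has the purine and the G and Ckm the purine without the G. Ak1, which was higher in IP in both genotypes, and Ckmt2, which passed the test below in WT alone, have both.

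The 3 creatine kinase genes are paralogs, so that the sequence also bears on whether their counts can be separated. Shown next is the gapless stretch of 60 coding bases with the most identity among them, coding positions 535 to 594 of Ckm and Ckb and 637 to 696 of Ckmt2, counted from the A of the start codon, with capitals where a base differs from Ckm.
Ckm: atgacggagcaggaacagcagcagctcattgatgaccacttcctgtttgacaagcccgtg
Ckb: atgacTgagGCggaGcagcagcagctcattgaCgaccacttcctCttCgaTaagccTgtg
Ckmt2: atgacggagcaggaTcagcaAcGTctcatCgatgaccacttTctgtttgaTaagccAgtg
Even here 46 of 60 bases were shared by all, and Ckb differed from Ckm at 9 and Ckmt2 at 8. Over the whole aligned coding sequence Ckm and Ckb were 76.4% identical, Ckm and Ckmt2 67.7%, and Ckb and Ckmt2 66.8%, and the longest run of identical bases was 20, between Ckm and Ckb. Ak1 and Ak3 were 62.0% identical, with a longest shared run of 10 bases. One annotated gene, Gm12892, matched the Ckb transcript at 96.8% over 1149 bases and was listed at 0 counts in every library.

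In build GRCm38, Ckm lies on chromosome 7 (chr7:19404776-19422841, plus strand), Ckmt2 on chromosome 13 (chr13:91853387-91876885, minus strand) and Ckb on chromosome 12 (chr12:111669361-111672338, minus strand). Ak1 lies on chromosome 2 (chr2:32621758-32635058, plus strand) and Ak3 on chromosome 19 (chr19:29020833-29047961, minus strand). Mb is on chromosome 15 (chr15:77015487-77050670, minus strand) and Slc6a8 on the X chromosome (chrX:73673150-73682502, plus strand). The sources used here do not give how reads were assigned to strands, so reads of genes that overlap on opposite strands cannot be told apart. This touches Ak3 most, whose overlapping partner Cdc37l1 had 693 counts over all libraries. The overlapping partners of Ckm, Ckmt2 and Mb had at most 15, 4 and 6 counts.

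Library totals ran from 169359 counts (KO Input replicate 3) to 710868 (KO IP replicate 2), and 3 counts stood for 4.22 to 17.7 CPM, the usual unit of counts relative to the library total. All levels below are CPM scaled by the trimmed mean of M values (TMM). Replicates of every group differed by more than sampling noise. Globin genes took 1.70% to 17.3% of a library, and 2 libraries, WT IP replicate 2 and WT Input replicate 3, stood apart with 17.3% and 13.8%. Rpl3l itself was 269.6 ± 43.9 CPM (SD, n = 3) in WT Input and 48.9 ± 20.9 in KO Input, and 271.6 ± 2.75 in WT IP and 4.42 ± 3.37 in KO IP, lower in all KO libraries. Cardiomyocyte markers were high everywhere, with summed levels of 65485 to 76038 CPM over 9 of 10 markers, while Actc1 was listed at 0 in every library.

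The 7 genes together made up 1.18% to 1.60% of the counts of a WT Input library, 1.13% to 1.45% in KO Input, 0.89% to 1.05% in WT IP and 0.89% to 1.05% in KO IP. By mean CPM per kb of the longest annotated transcript in WT Input, the rank among all 6596 tested genes was 14 for Mb, 81 for Ckmt2, 152 for Ckm and 367 for Ak1. It was 1433 for Ckb, 2176 for Ak3 and 2396 for Slc6a8. By mean CPM in WT Input, without length, the rank was 10 for Mb, 42 for Ckm, 48 for Ckmt2 and 280 for Ak1. Slc6a8 then had rank 1563, Ak3 1982 and Ckb 2227.

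The order of gene levels is given first per kilobase of the longest annotated transcript and then by CPM without length. A nanopore read stands for a molecule whatever its length, so the order per kilobase depends on a division that such reads may not need. Count ratios and shares further below take no account of length. In WT Input the order was Mb (8479 ± 889 CPM per kb), Ckmt2 (1693 ± 82.4), Ckm (965 ± 80.9), Ak1 (307 ± 28.3), Ckb (47.8 ± 5.63), Ak3 (27.6 ± 5.12) and Slc6a8 (24.4 ± 2.37). Only the last neighbours, Ak3 and Slc6a8, overlapped between libraries. In KO Input the order was the same down to Ckb (36.3 ± 4.56), and Ckb, Slc6a8 (25.6 ± 8.63) and Ak3 (16.6 ± 11.5) each overlapped with the next. In the ribosome pulldown, whether Mb stood above Ckmt2 depended on the transcript length used. Per kb of the longest transcript Mb had 2979 ± 384 CPM per kb in WT and 2585 ± 818 in KO, and Ckmt2 2568 ± 435 and 2402 ± 259, with overlapping libraries in both genotypes. The annotated lengths of Ckm and Mb are uncertain. With the shorter annotated 3′ end the Ckm transcript has 1485 bases instead of 2742, which gives 1782 ± 149 CPM per kb in WT Input, a mean above that of Ckmt2. The coding transcript of Mb has 550 bases against 1104 for the longest one, which gives 17019 ± 1784 CPM per kb in WT Input. By that length Mb had 5980 ± 771 CPM per kb in WT IP and 5189 ± 1642 in KO IP, means above those of Ckmt2. By mean CPM, without length, Ckm (2646 ± 222) stood above Ckmt2 (2515 ± 122) in WT Input. There Slc6a8 (96.9 ± 9.41) stood above Ak3 (77.6 ± 14.4) and Ckb (70.4 ± 8.29), and neighbours in each case overlapped between libraries.

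**Figure D1:**
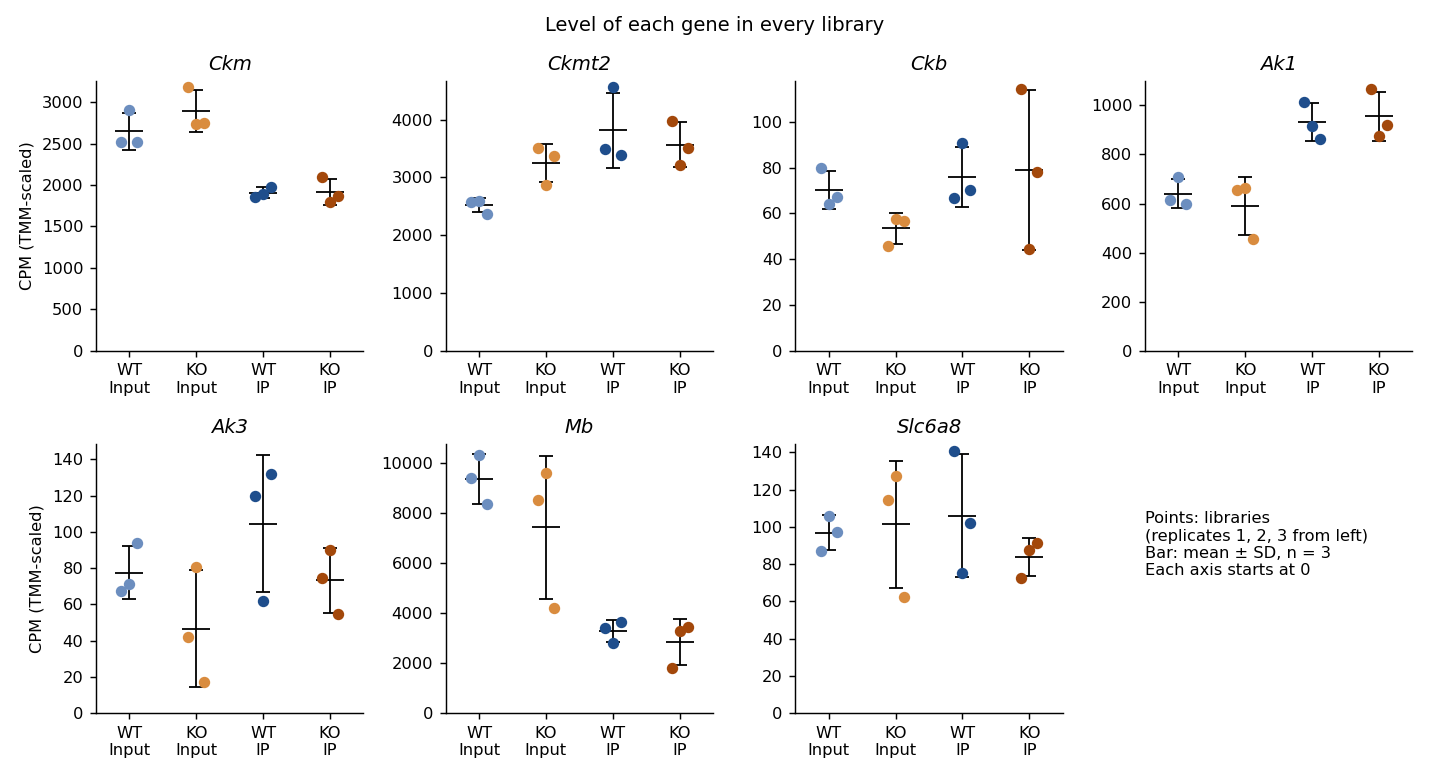
TMM-scaled CPM of each gene in the 12 libraries, grouped as WT Input, KO Input (Rpl3l-/-), WT IP and KO IP; points are libraries and bars are mean ± SD (n = 3), on axes that start at 0. Mb and Ckm were lower and Ak1 was higher in all IP than in all Input libraries, and Ckmt2 was lowest in WT Input.

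The first question is whether loss of Rpl3l changed the RNA level of these genes. No gene of the list passed the test in Input, where 0 of 7 were called against 0.182% of all tested genes, nor in IP, where 0 of 7 were called against 0.091%. A gene is called here when its adjusted p from edgeR's quasi-likelihood test is under 0.05 after Benjamini-Hochberg adjustment over all 6596 tested genes. At an unadjusted p under 0.05 there was 1 gene in Input (Ckmt2) and 0 in IP. DESeq2 and limma-voom also called none of the 7 in either fraction. The median log2 fold change of the list, KO against WT, was -0.11 in Input and -0.10 in IP, where the medians of all tested genes were -0.01 and 0.00.

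Among the creatine kinases, Ckm measured 2518, 2903 and 2519 CPM in WT Input (replicates 1, 2 and 3, here and below) and 3184, 2739 and 2750 CPM in KO Input. The groups overlapped, with a log2 fold change of 0.13 (SE 0.15) and an adjusted p of 0.906 (edgeR). In IP its level was 1855, 1891 and 1977 CPM in WT and 2096, 1792 and 1868 CPM in KO, a difference of 0.01 on the log2 scale (SE 0.15, edgeR adjusted p = 1.0). An interval of 2 SE around that difference runs from -0.29 to 0.31. Ckm had the smallest SE of the 7 genes in this comparison.

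Ckmt2 had the only genotype difference in Input with an unadjusted p under 0.05. It stood at 2575, 2597 and 2375 CPM in WT Input and at 3504, 2874 and 3375 CPM in KO Input. Every KO library was above every WT library, which was the case for 6.17% of all tested genes. The log2 fold change was 0.37 (SE 0.17, edgeR adjusted p = 0.671, and 0.0373 before adjustment). In IP the genotypes overlapped, at 3498, 4559 and 3390 CPM in WT and 3983, 3221 and 3504 CPM in KO (log2 fold change -0.10, SE 0.17, edgeR adjusted p = 0.988).

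Ckb, the subunit shared with smooth muscle, endothelium and brain, had few counts. Its counts were 32, 26 and 20 in WT Input, 12, 15 and 10 in KO Input, 45, 53 and 40 in WT IP and 49, 34 and 47 in KO IP. Scaled, these were 79.8, 64.1 and 67.2 CPM in WT Input and 45.7, 57.8 and 56.8 CPM in KO Input, with every KO library below every WT library, as in 6.2% of all tested genes. The log2 fold change was -0.41 (SE 0.35, edgeR adjusted p = 0.856). In IP it was 0.01 (SE 0.28), between 66.6, 90.8 and 70.4 CPM in WT and 114, 44.5 and 78.1 CPM in KO, a spread in KO that enclosed all WT values.

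Of the adenylate kinases, Ak1 had 616, 708 and 598 CPM in WT Input and 655, 663 and 455 CPM in KO Input (log2 fold change -0.11, SE 0.17, edgeR adjusted p = 0.923). In IP it had 1016, 917 and 865 CPM in WT and 1069, 876 and 921 CPM in KO (log2 fold change 0.03, SE 0.16). Ak1 overlapped between genotypes in both fractions, and its single low value was KO Input replicate 3, the shallowest library. Ak3 was lower on average in KO in both fractions, with a log2 fold change of -0.64 (SE 0.40, edgeR adjusted p = 0.774) in Input and -0.50 (SE 0.30, 0.965) in IP. The Input value was -1.29 without KO Input replicate 2 and -0.32 without KO Input replicate 3, and the IP value ran from -0.78, with WT IP replicate 2 left out, to -0.31, with WT IP replicate 3 left out. Its Input values were 67.3, 71.5 and 94.0 CPM in WT and 41.9, 80.9 and 17.0 CPM in KO, where the last value rests on 3 counts. Its IP values were 120, 61.7 and 132 CPM in WT and 74.7, 90.3 and 54.9 CPM in KO. The genotypes overlapped in both fractions.

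Myoglobin had 9392, 10325 and 8363 CPM in WT Input and 8504, 9610 and 4194 CPM in KO Input (log2 fold change -0.33, SE 0.25, edgeR adjusted p = 0.823). In IP it had 3412, 2817 and 3638 CPM in WT and 1816, 3287 and 3459 CPM in KO (log2 fold change -0.20, SE 0.25, edgeR adjusted p = 0.985). In each fraction 1 KO library, Input replicate 3 and IP replicate 1, was well below the others, and the remaining KO libraries lay within the WT range. The Input value was -0.047 without KO Input replicate 3 and -0.57 without KO Input replicate 2. Without KO IP replicate 1 the sign in IP turned, to a log2 fold change of 0.04.

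Slc6a8 had 87.2, 106 and 97.4 CPM in WT Input and 114, 127 and 62.5 CPM in KO Input (log2 fold change 0.11, SE 0.28, edgeR adjusted p = 0.956). Its IP values were 141, 75.4 and 102 CPM in WT and 72.3, 87.6 and 91.4 CPM in KO (log2 fold change -0.34, SE 0.24, edgeR adjusted p = 0.983), and the IP difference ran from -0.54, with WT IP replicate 2 left out, to -0.077, with WT IP replicate 1 left out. Genotypes overlapped in both fractions, and the WT IP values alone span almost as much as all 12 libraries.

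**Figure D2:**
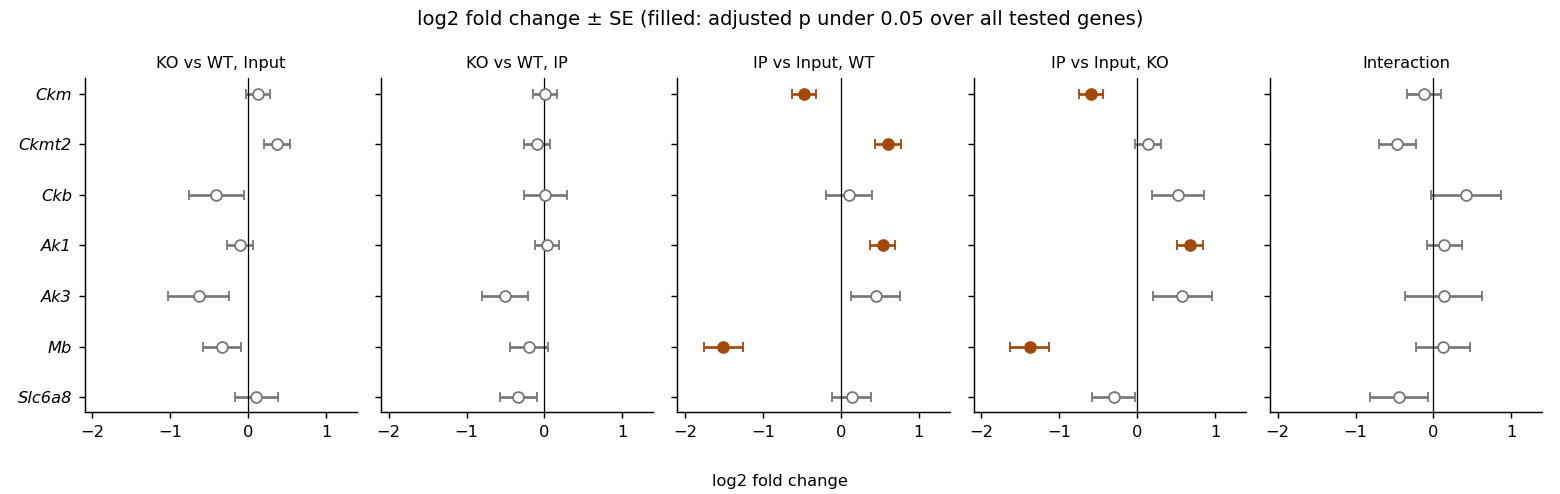
log2 fold change ± SE of each gene (edgeR, n = 3 libraries per group) in KO against WT (Input, IP), IP against Input (WT, KO) and the interaction (the log2 IP to Input ratio in KO minus that in WT); filled points have an adjusted p under 0.05 over all 6596 tested genes. Filled points occur in the IP against Input panels alone, where Mb and Ckm lie left of 0 and Ak1 right of 0 in both genotypes, and Ckmt2 is filled in WT.

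The second question is how the ribosome-bound share of each mRNA compares with its total level. In WT, 4 of 7 genes were called, against 14% of all tested genes (5.37% higher and 8.67% lower), and in KO 3 of 7, against 16.4% (6.64% higher and 9.78% lower). The WT count was 1 without WT IP replicate 2, WT Input replicate 1 or WT Input replicate 3, and 2 without WT IP replicate 1. Ckmt2 (WT) and Ak1 (both genotypes) rose in IP, and Mb and Ckm fell in IP in both genotypes. These 4 are the genes of the list with the most reads, at least 424 in any group of 3 libraries. Ckb, Ak3 and Slc6a8 had at most 197. The shares of all tested genes are not matched for read number, so they are not a comparison at like depth. Over both genotypes, all 6 IP libraries were below all 6 Input libraries for Mb and Ckm and above them for Ak1, and 12.2% of all tested genes separated in one or the other direction. These comparisons use the same libraries as the genotype comparisons, so their values are not independent of those above. The split of all called genes into 438 higher and 645 lower in KO became 599 higher and 448 lower when libraries were scaled by their totals, which moved the median log2 fold change of all genes by 0.15. In bulk heart RNA, fewer cells of a type and less RNA per cell cannot be told apart.

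Mb had the strongest difference of the list. Its mean level went from 9360 ± 981 CPM in WT Input to 3289 ± 424 CPM in WT IP (SD, n = 3), which is 2.85-fold lower, a log2 fold change of -1.51 (SE 0.25, edgeR adjusted p = 0.000139). In KO it went from 7436 ± 2862 to 2854 ± 903 CPM, 2.61-fold lower, a log2 fold change of -1.38 (SE 0.25, edgeR adjusted p = 0.000363). Within the whole table, 97.0% of tested genes in WT and 95.8% in KO had a higher IP to Input ratio than Mb. The call held in all 19 alternatives in each genotype, with the log2 fold change between -1.59 and -0.99 in WT and between -1.66 and -0.82 in KO.

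Transcript length moved with the IP to Input ratio over all genes, shorter mRNAs having lower ratios. At the length of Mb (1104 bases for the longest transcript) the fitted trend was -0.36 in WT and -0.35 in KO on the log2 scale, and at 550 bases, its coding transcript, it was -0.52 and -0.56. With the second trend removed, the log2 fold change of Mb was -0.99 (edgeR adjusted p = 0.00968) in WT and -0.82 (0.0279) in KO.

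**Figure D3:**
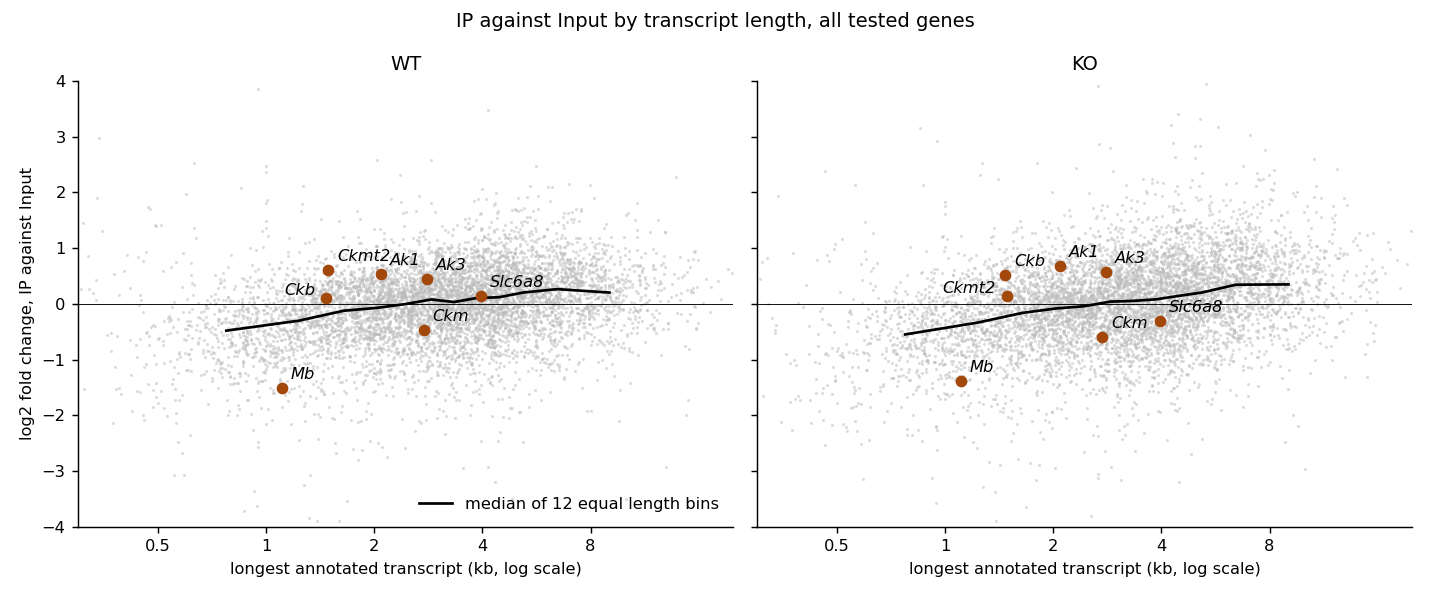
log2 fold change of IP against Input for all tested genes (grey) against the length of the longest annotated transcript in kb (log axis) in WT and KO, with the 7 genes in brown and the median of 12 equally filled length bins as a line; genes beyond the axis limits are not drawn. The line climbs from short to long transcripts, and Mb lies below it while Ckmt2 and Ak1 lie above it.

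Ckm fell in IP as well, by less. It went from 2646 ± 222 to 1908 ± 62.9 CPM in WT, a log2 fold change of -0.47 (SE 0.15, edgeR adjusted p = 0.0373), and in KO from 2891 ± 254 to 1919 ± 158 CPM, which is -0.59 on the log2 scale (SE 0.15, edgeR adjusted p = 0.00808). In WT this lay close to the threshold, and 12 of 20 alternatives ended the call, each single WT library left out among them. The highest adjusted p, 0.332 (edgeR), came with removal of the length trend with the shorter 3′ end, where the WT log2 fold change was -0.24. In KO 3 of 20 ended it, which were scaling by library totals (edgeR adjusted p = 0.0547), no count filter (0.0810) and removal of the length trend with the shorter 3′ end (log2 fold change -0.38, 0.105). The direction was the same in all of them.

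Ak1 rose in IP in both genotypes. Its mean was 640 ± 59.0 CPM in WT Input and 932 ± 76.7 in WT IP, 1.45-fold higher (log2 fold change 0.54, SE 0.16, edgeR adjusted p = 0.0237). In KO it was 591 ± 118 and 955 ± 101 CPM, 1.60-fold higher (log2 fold change 0.68, SE 0.16, edgeR adjusted p = 0.00502). The KO call held in all 19 alternatives. The WT call was lost without WT IP replicate 1 or 2, without WT Input replicate 1 or 3 or without both high-globin libraries, with adjusted p up to 0.152 and a log2 fold change between 0.49 and 0.76 over all 19 alternatives. The matrix enzyme Ak3 had positive values that did not pass, 0.45 (SE 0.31, edgeR adjusted p = 0.373) in WT and 0.58 (SE 0.38, 0.327) in KO.

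Ckmt2 rose in IP in WT, from 2515 ± 122 to 3815 ± 646 CPM, 1.52-fold higher (log2 fold change 0.60, SE 0.17, edgeR adjusted p = 0.0164). In KO the change from 3251 ± 333 to 3569 ± 386 CPM did not pass (log2 fold change 0.13, SE 0.17, edgeR adjusted p = 0.641). Its WT IP replicate 2, a high-globin library, was the highest of all at 4559 CPM. Without it the WT value was 0.45 (edgeR adjusted p = 0.107), without WT Input replicate 1 it was 0.61 (0.0584), without WT Input replicate 3 it was 0.55 (0.0788), and without both high-globin libraries 0.43 (0.233).

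The difference between genotypes in the IP to Input ratio was itself tested as an interaction, in which 0 of 7 genes were called against 0.091% of all tested genes. Ckmt2 had the smallest p of the list (log2 difference -0.47, SE 0.24, edgeR adjusted p = 0.727, and 0.0593 before adjustment), so that the call in WT and its lack in KO are not shown to differ. The interaction was -0.44 (SE 0.37) for Slc6a8 and 0.42 (SE 0.45) for Ckb, and within 0.14 of 0 for Ckm, Ak1, Ak3 and Mb. None had an unadjusted p under 0.05, and DESeq2 and limma-voom called none.

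Ckb and Slc6a8 did not separate between fractions. For Ckb, IP against Input was 0.10 (SE 0.29, edgeR adjusted p = 0.856) in WT and 0.52 (SE 0.33, 0.314) in KO. For Slc6a8 it was 0.14 (SE 0.25, edgeR adjusted p = 0.770) in WT and -0.30 (SE 0.27, 0.491) in KO.

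Ratios within a library do not depend on scaling between libraries, and 4 such ratios were compared in 4 contrasts each, 16 two-sided exact permutation tests in all. With 3 libraries against 3 the smallest possible p is 0.1, so none could pass 0.05, and the smallest Benjamini-Hochberg value was 0.229. The ratio of Ckmt2 to Ckm counts had a geometric mean of 0.95 in WT Input and 1.98 in WT IP, and of 1.12 in KO Input and 1.86 in KO IP. IP and Input libraries did not overlap in either genotype (exact p = 0.1 each), and neither did KO and WT Input (exact p = 0.1).

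As a share of all creatine kinase counts, Ckmt2 took 48.1 ± 1.57% in WT Input, 65.5 ± 3.78% in WT IP, 52.4 ± 1.99% in KO Input and 64.1 ± 0.36% in KO IP (SD, n = 3). Ckm took 50.5 ± 1.76%, 33.2 ± 3.84%, 46.7 ± 1.98% and 34.5 ± 0.83% in the same order. Ckb contributed between 0.87 ± 0.17% (KO Input) and 1.39 ± 0.49% (KO IP).

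The ratio of Ckm to Ckb counts was 37.7 in WT Input, 54.3 in KO Input, 25.3 in WT IP and 26.0 in KO IP as geometric means. The IP libraries lay below the Input libraries in both genotypes, and KO Input lay above WT Input (exact p = 0.1 each), while the genotypes overlapped in IP (exact p = 1.0). The ratio of Mb to Ckm was 3.53 in WT Input and 1.71 in WT IP without overlap (exact p = 0.1), and 2.43 and 1.43 in KO with overlap (exact p = 0.3). The Ak1 to Ak3 ratio was 8.32, 15.1, 9.38 and 13.3 in WT Input, KO Input, WT IP and KO IP and overlapped in all 4 contrasts.

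**Figure D4:**
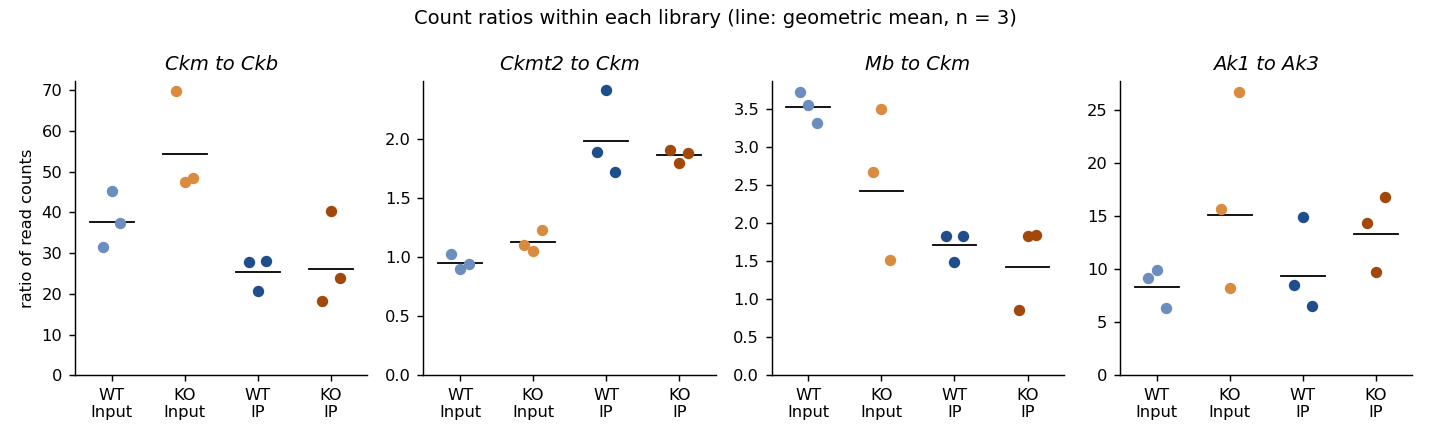
Ratio of read counts of gene pairs within each library, with points for libraries and lines for the geometric mean of each group (n = 3), on axes that start at 0. The Ckmt2 to Ckm ratio is near 1 in the Input groups (0.95 and 1.12) and near 2 in the IP groups (1.98 and 1.86).

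The summed markers of 3 other cell types were lower in IP than in Input, and those of others overlapped between the fractions. The summed level of 6 atrial markers was 6842 to 8891 CPM in WT Input and 8313 to 12003 in KO Input, but 465 to 1159 in WT IP and 362 to 1008 in KO IP, with Bmp10 at 0 in every WT IP library. The 6 adipocyte markers summed to 160 to 789 CPM in WT Input and 176 to 434 in KO Input, against 87.3 to 99.4 in WT IP and 60.7 to 95.5 in KO IP. The 8 endothelial markers summed to 2286 to 3134 and 2780 to 3574 CPM in the Input groups, and to 1613 to 2167 and 1589 to 1719 in the IP groups. Most of that sum was Fabp4, with means of 1864 and 2272 CPM in WT and KO Input and 1287 and 1085 in IP. Egfl7, Cdh5, Kdr and Cldn5 also had lower means in IP in both genotypes. Pecam1 had higher ones (75.3 and 94.1 CPM in WT and KO Input, 99.1 and 119 in IP), and Tie1 and Emcn differed in direction between genotypes. All members of these 3 lists had counts, and their part in the IP to Input values of Mb, Ckm, Ak1 and Ckmt2 was not tested. Summed fibroblast, smooth muscle and pericyte, macrophage and erythroid markers overlapped between fractions in both genotypes. Fibroblast markers had means of 3024 and 2877 CPM in WT Input and IP, and 3309 and 3603 in KO. Smooth muscle and pericyte markers had 681 and 780 in WT and 748 and 797 in KO. For macrophage markers these were 585.4 and 618.8 in WT and 629.4 and 586.5 in KO. All 11 skeletal muscle markers had counts. Their summed level, 511 to 2316 CPM over the 12 libraries, was nearly all Acta1. Tnnt3, Tnni2, Myh1, Pvalb, Mylpf, Atp2a1, Actn3 and Tnnc2 each had at most 15 counts over all libraries. The fast myosins Myh4 and Myh2 had 126 and 57 counts, and Myh4 was present in every library, at 7.62 to 38.2 CPM.

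Genes that work beside these 7 were followed as 7 lists of 62 genes, of which 55 had counts and 34 were tested. In both genotype comparisons and in the interaction edgeR, DESeq2 and limma-voom each called 0 of 34, and in edgeR 3 had an unadjusted p under 0.05 in Input, 0 in IP and 2 in the interaction. For IP against Input, 2 were higher and 1 lower in WT, 3 of 34 against 14% of all tested genes. In KO 3 were higher and 2 lower, 5 of 34 against 16.4%. The remaining genes of creatine metabolism, Gatm, Gamt and Ckmt1, had too few counts to test.

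Of the remaining adenylate kinases, 3 of 7 were tested and none was called. The list's median IP to Input log2 fold change was -0.12 in WT and -0.49 in KO. Among genes of AMP and adenine nucleotide turnover 10 of 18 were tested and none was called, with medians of -0.07 and 0.11. The smallest p there was that of the cytosolic nucleotidase Nt5c2 in KO (log2 fold change 0.94, SE 0.43, edgeR adjusted p = 0.147).

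The nucleoside diphosphate kinases pass phosphate between ATP and the remaining nucleoside triphosphates, and 3 of 7 were tested. Nme2 fell in IP in both genotypes, from 2144 ± 107 to 582 ± 175 CPM in WT (log2 fold change -1.88, SE 0.27, edgeR adjusted p = 1.83e-05) and from 1751 ± 451 to 569 ± 268 CPM in KO (-1.61, SE 0.27, 0.000142). Nme3 fell in KO (-1.33, SE 0.44, edgeR adjusted p = 0.0402) on levels of 43.9 ± 13.5 and 19.1 ± 10.2 CPM, a call that 11 of 17 alternatives ended. In WT it was 0.08 (SE 0.40, edgeR adjusted p = 0.925). The Nme3 interaction was -1.40 (SE 0.59, edgeR adjusted p = 0.667), so that the genotypes are not shown to differ. Nme1 and Nme2 are close paralogs whose reads the counting could have split. The list's median was -0.26 in WT and -1.33 in KO.

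Of the carriers and channels that exchange ATP, ADP and phosphate across the mitochondrial membranes, 6 of 7 were tested. The phosphate carrier Slc25a3 rose in IP in KO, from 2064 ± 100 to 3432 ± 204 CPM (log2 fold change 0.73, SE 0.15, edgeR adjusted p = 0.00151), and was 0.40 (SE 0.15, 0.0787) in WT, where it passed with DESeq2 and limma-voom. The outer membrane channel Vdac2 rose in IP in KO, from 383 ± 66.1 to 592 ± 95.8 CPM (0.61, SE 0.17, edgeR adjusted p = 0.0140), a call lost without KO IP replicate 1 (0.0614) or KO Input replicate 3 (0.0617), with the adjusted p between 0.00299 and 0.0617 over 19 alternatives. In WT it was -0.07 (SE 0.16, edgeR adjusted p = 0.814). The Vdac2 interaction was 0.68 (SE 0.23, edgeR adjusted p = 0.529), so that the genotypes are not shown to differ in this ratio. KO against WT, Vdac2 was -0.52 (SE 0.17, edgeR adjusted p = 0.456) in Input and 0.16 (SE 0.16, 0.985) in IP. The heart's main ATP/ADP carrier Slc25a4 did not pass in any contrast, at 14274 ± 1311 CPM in WT Input and 14437 ± 760 in WT IP. The list's median was -0.11 in WT and 0.13 in KO.

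For the AMP-activated protein kinase, which senses AMP, 3 of 8 subunit and upstream genes were tested and none was called. Its catalytic subunit gene Prkaa2 came closest, with 85.8 ± 26.1 CPM in WT Input and 141 ± 21.3 in WT IP (log2 fold change 0.69, SE 0.24, edgeR adjusted p = 0.0594). In 3 of 19 alternatives it was called, with the adjusted p between 0.0262 and 0.244 over all 19. The list's median was 0.15 in WT and 0.24 in KO.

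Among genes of oxygen binding and sensing, 9 of 12 were tested, with medians of 0.35 in WT and 0.40 in KO, where all tested genes had 0.02 and 0.01. Hif1a was listed at 0 in every library and could not be tested. Epas1, a hypoxia-inducible transcription factor subunit, rose in IP in WT, from 241 ± 39.5 to 371 ± 24.5 CPM (0.62, SE 0.17, edgeR adjusted p = 0.0148), and in KO, from 231 ± 31.6 to 388 ± 48.5 CPM (0.77, SE 0.18, 0.00386). Of 19 alternatives each, 7 ended the WT call and 2 the KO call, and removal of the length trend ended both (edgeR adjusted p = 0.0867 in WT and 0.0590 in KO, within ranges of 0.00570 to 0.0990 and 0.000436 to 0.0629). Hif1an, the hydroxylase that inhibits hypoxia-inducible factors, rose in WT (1.04, SE 0.34, edgeR adjusted p = 0.0385), and 10 of 19 alternatives ended that call. In KO it was 1.15 (SE 0.41, edgeR adjusted p = 0.0549). Egln2, a prolyl hydroxylase of hypoxia-inducible factors, had 90.3 ± 12.9 CPM in KO Input and 48.9 ± 14.9 in KO IP (-0.89, SE 0.31, edgeR adjusted p = 0.0520), which limma-voom called, and -0.16 (SE 0.31, 0.790) in WT. Cytoglobin (Cygb), a globin related to Mb, had positive values of 0.55 (SE 0.21, edgeR adjusted p = 0.0757) in WT and 0.49 (SE 0.22, 0.141) in KO.

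**Figure D5:**
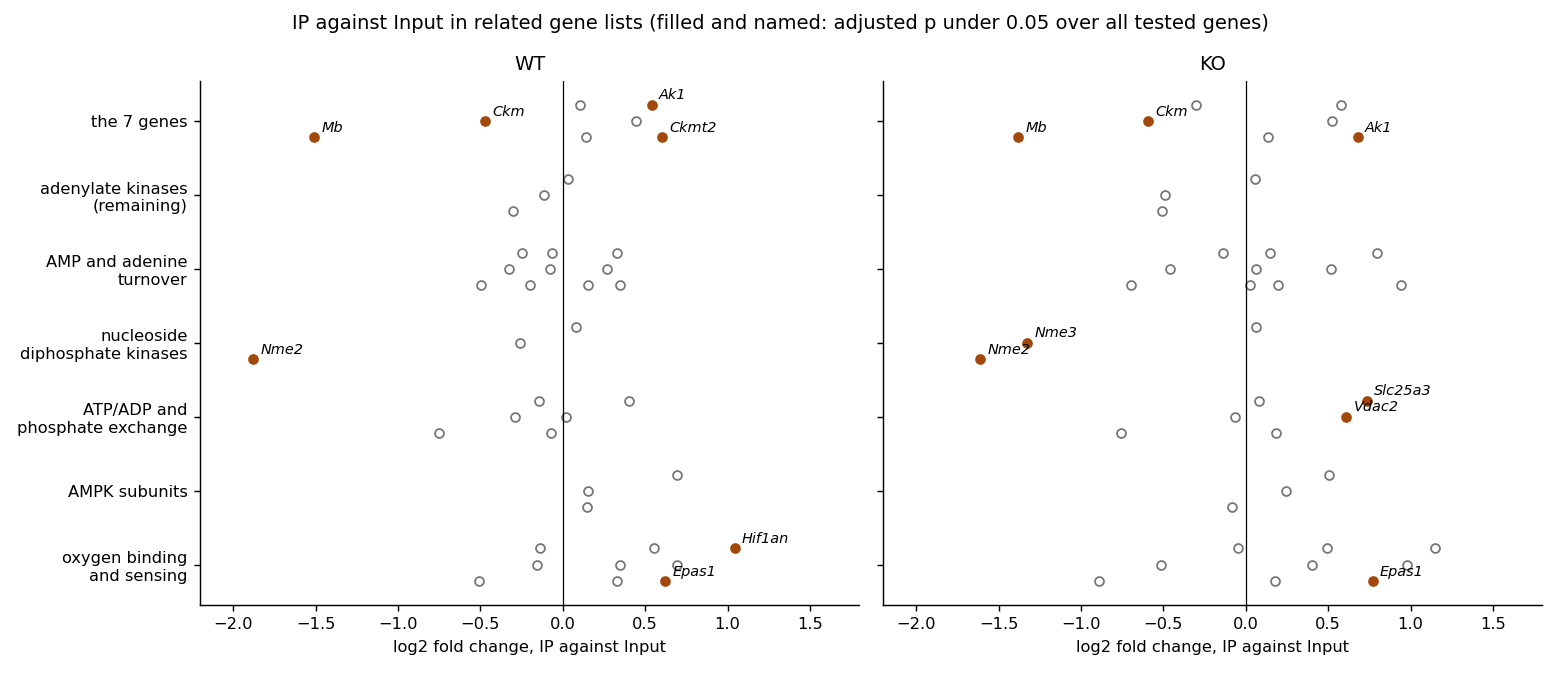
log2 fold change of IP against Input in WT and KO for the 7 genes and for the tested members of 6 related gene lists, 1 point per gene, with genes whose adjusted p was under 0.05 over all tested genes filled and named. Mb and Nme2 are the lowest points in both genotypes, and the AMP and adenine turnover genes lie on both sides of 0.

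By rule, the 3 genes most like each gene were taken as those with the highest Pearson correlation of log2 CPM over the 12 libraries among 6027 genes, values that share library depth and the IP to Input difference. For Mb these were Hsd17b10 (r = 0.97), Abracl (0.97) and Nme2 (0.96). For Ckm they were Bad (0.97), Tomm7 (0.96) and Eif5a (0.96), and for Ak1 Dlst (0.98), Flt1 (0.97) and Mdh1 (0.96). Ckmt2 was most like Jpt1 (0.93) and the predicted genes Gm6222 (0.92) and Gm10221 (0.91). For Ckb the closest were Plekhj1 (0.86), Mrpl45 (0.85) and Nsun4 (0.83). For Ak3 they were Elp3 (0.91), Cpxm2 (0.89) and Mprip (0.89), and for Slc6a8 Nlk (0.88), Rabep1 (0.85) and Acta1 (0.80). Within the list, Mb and Ckm correlated at 0.79 and Mb and Ckmt2 at -0.80.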

How the data were processed

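The values are read counts per gene, deposited by the authors as 1 whole number per gene and library for 12 libraries. Per the submitters' processing notes, minimap2 2.14, DESeq2 1.34.0 and the build GRCm38 were used. The counting tool, its rule for reads that match several genes and its use of strand are not given in the sources used here. Of 55401 gene identifiers, 55141 matched GENCODE M21 without their version, and 38803 genes were at 0 everywhere.

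Counts were tested in R 4.3.3 with edgeR 4.0.16 (limma 3.58.1). The filter filterByExpr with a minimum count of 10 and a minimum total of 15 left 6596 genes. All 12 libraries entered a quasi-likelihood model with TMM factors, a mean for each group and a common dispersion of 0.0333, and 5 contrasts were tested with Benjamini-Hochberg adjustment within each and a threshold of 0.05. The SE is the log2 fold change divided by the square root of F. On simulated counts of 6596 genes, the test recovered 23% of those given a log2 change of 1 and 83% of those given 2 for KO against WT in Input, 52% and 92% in IP, 38% and 90% for IP against Input in WT, and 34% and 85% in KO. Every gene was simulated with the common dispersion, so genes with a wider spread are not covered. False calls were 9 of 115 and 8 of 152 for KO against WT in Input and IP. For IP against Input they were 2 of 130 in WT and 4 of 123 in KO.

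Alternatives were DESeq2 size factors and the DESeq2 1.42.0 test, limma-voom, library totals, no filter or at least 30 counts in 3 libraries, the replicate number as a block, a fit of the compared libraries alone, thinning to 169359 counts, globin genes left out, removal of the length trend (loess, span 0.5) and each library left out. Added after the data were seen were both high-globin libraries left out, the length trend by coding transcript and the length trend with the shorter Ckm 3′ end. Sequences come from GENCODE M21 transcripts, and near copies were searched with blastn 2.17.0 (identity of at least 90% over 200 bases).

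The 7 genes, the related lists and the markers were chosen with earlier results of these data known. Named genes are the 7, up to 3 called genes of smallest p per list and contrast, or the 1 of smallest p where a list has none, and 3 genes of like pattern with mean CPM of at least 20. Slc25a4, Cygb and Egln2 were chosen after their values were seen, and 1 gene that the rule names is not reported here. Over the 12 libraries, summed markers were 2679 to 3925 CPM for fibroblast (8 of 8 with counts) and 614 to 942 for smooth muscle and pericyte (6 of 6). They were 424 to 806 for macrophage (6 of 6) and 16171 to 202910 for erythroid markers (6 of 6).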

Additional observations from a re-analysis of the deposited data

How the results depend on the processing

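Over the alternatives tried, 405 of 437 values of the 7 genes in the genotype contrasts and the interaction kept their direction and none passed the threshold, and 32 changed sign. For IP against Input 241 of 268 kept direction and side, 24 lost significance and 3 changed sign. The causes were not tested. The number of the 7 genes called in WT fell from 4 to 1 without both high-globin libraries, and was 1 (Mb) to 3 with each WT library left out. The lowest count in a library was 10 for Ckb, 3 for Ak3 and 11 for Slc6a8, all in KO Input replicate 3, so their values there carry wide counting error.

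Genes called among all tested moved as follows. The filter settings and thinning also changed how many genes were tested, from 6596 to 3177 when thinned. For KO against WT in Input, 12 became 77 without a filter, 5 with the stricter one and 4 to 17 with a library left out (4 without WT Input replicate 1, 5 without KO Input replicate 3). In IP, 6 became 55 without a filter, 11 with DESeq2, 3 without both high-globin libraries and 2 to 7 with a library left out (2 without WT IP replicate 1, and 3 when either KO IP replicate 3 or WT IP replicate 2 was missing). For IP against Input in WT, 926 became 491 when thinned, 424 without both high-globin libraries and 601 (without WT Input replicate 1) to 686 with a library left out. In KO, 1083 became 662 when thinned. For the interaction, 6 became 37 without a filter, 1 with limma-voom, 0 when thinned (edgeR, 197 at an unadjusted p under 0.05), 1 without both high-globin libraries and 1 to 8 with a library left out (1 without WT Input replicate 1, 3 without WT IP replicate 3). The log2 difference of the Ckmt2 to Ckm ratio, KO against WT in Input, was 0.24 and 0.35 when thinned.

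Signs changed only where no call was made. In Input, KO against WT, Ak1 was 0.020 and Slc6a8 -0.040 when thinned, and with a library left out they ran from -0.21 to 0.040 and from -0.090 to 0.32. In IP, Ckm was -0.0012 without a filter and -0.00030 with limma-voom, Ckmt2 was 0.024 with library totals and 0.049 without both high-globin libraries, Ckb was -0.0012 without a filter and -0.12 with limma-voom, and Ak1 was -0.021 when thinned. With a library left out, Ckm ran from -0.061 to 0.053, Ckmt2 from -0.18 to 0.043, Ckb from -0.33 to 0.32, Ak1 from -0.055 to 0.094 and Mb from -0.36 to 0.035. For IP against Input in WT, Ckb was -0.057 without both high-globin libraries, and with a library left out Ckb ran from -0.041 to 0.21 and Slc6a8 from -0.11 to 0.33. In the interaction, Ak1 was -0.041 when thinned and Ak3 -0.28 without both high-globin libraries, and with a library left out Ak1 ran from -0.0083 to 0.23, Ak3 from -0.18 to 0.78 and Mb from -0.16 to 0.37.

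Same-numbered libraries did not deviate together (r from -0.12 to 0.04, and a library was best matched by its own number in 3 of 36 cases). Libraries with different numbers also had r near 0 (-0.07 to 0.12), so this check cannot tell whether same-numbered libraries share a heart. The labels do not say so either. With the replicate number as a block, 3 of the 7 genes were called in WT and 3 in KO for IP against Input, none in the other contrasts, and 858 and 1009 of all tested genes. Ckb in IP, KO against WT, was -0.0098 under the block.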
